A study of Mus musculus with 9 samples.

Results

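The genes described here are 43 mouse genes that work in homologous recombination and the response to DNA damage. They were taken from a list of symbols that was chosen with earlier results of these data known. Their values were read out of the 55450 genes in the count table of an RNA-sequencing experiment on lineage-traced mammary cells. All 43 were found in the table, and all 43 passed the filter on low counts and were tested. They fall into 10 groups by role, from the BRCA1 and BRCA2 mediators of recombination to p53 and its regulator MDM2.

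EYFP+ cells were sorted by FACS as live cells from the mammary glands of adult female mice, and their RNA was sequenced as bulk libraries. All mice carried K8CreERT2, a tamoxifen-inducible Cre driven by the Krt8 promoter and so active in luminal cells, and the lsl-EYFP reporter, which marks recombined cells and their progeny. Control mice carried the driver and the reporter only. Mice of the LATS1/2-KO group had LATS1/2f/f alleles beside these, that is, Lats1 and Lats2 both floxed. The LATS1/2-Sox9-KO mice had Sox9f/f alleles in addition to all of the others. Every mouse, controls included, received 5 doses of 2 mg of tamoxifen, and the labels place the sort at 7 days after the last dose. Each group has 3 libraries. The labels do not say that they came from separate mice, so the p-values measure the spread between these libraries. Total counts ran from 44167762 to 47003587 in the control libraries, from 50508666 to 61745346 in LATS1/2-KO and from 55503365 to 61967651 in LATS1/2-Sox9-KO. Values are given as normalized counts, which are counts scaled to the mean effective library size, and levels of different genes are compared only per kilobase of exon.

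Homologous recombination repairs a break through both DNA strands by copying from the sister chromatid. Nucleases trim the broken ends, BRCA2 and PALB2 prepare the exposed strand for the search for its match, and the Fanconi anaemia proteins open the same route at crosslinks that block a replication fork. Because a sister chromatid is needed, the route is used in the S and G2 phases of the cell cycle, while non-homologous end joining through Ku70, Ku80 and DNA-PKcs can act throughout the cycle. In the mammary epithelium the pathway is best known for BRCA1, whose inherited loss predisposes to basal-like breast cancer.

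The targeted genes were read first. Lats1 gave 5672, 5929 and 5940.4 normalized counts in the control libraries, 2090.1, 1923 and 2336 in those labelled LATS1/2-KO, and 2058, 1844 and 1709 in those labelled LATS1/2-Sox9-KO. Lats2 gave 1039, 865 and 1219.7 in control, 1256, 1434 and 1723 in LATS1/2-KO, and 1957, 1580.4 and 1239.7 in LATS1/2-Sox9-KO. Lats1 was lower than control in every library of both deletion groups, whereas Lats2 was above every control library in all 6 of them, a difference that passed the test in LATS1/2-Sox9-KO (log2 fold change 0.61 ± 0.20 SE, adjusted p = 0.024) and not in LATS1/2-KO (0.50 ± 0.20 SE, adjusted p = 0.0571). Sox9 was lower in both deletion groups than in control, and its difference between LATS1/2-Sox9-KO and LATS1/2-KO did not pass the test (log2 fold change -0.40 ± 0.19 SE, adjusted p = 0.25). Counts over whole genes include exons outside the deleted part, and the deleted exons were not examined, so the group names below are those of the labels. Krt18, a luminal keratin, was the most abundant of the luminal markers per kilobase in all 9 libraries.

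LATS1/2-KO replicate 1 stood apart from the other LATS1/2-KO libraries on the second principal component of all tested genes, at -12.9 against -57.4 and -69.3. It had the highest value of its group for 22 of the 43 repair genes and the lowest for 16, beside 37.6% and 41.1% of all genes tested. Without it 30 repair genes were called higher and 7 lower than in control, beside 28.5% and 27.3% of all genes. Rad51c, Atm, Trp53 and Mdm2 are given below without it as well. Control replicate 2 had the highest value of the 3 control libraries for 25 of the 43 repair genes, and for 27.1% of all genes tested. LATS1/2-Sox9-KO replicate 1 had the lowest value of its group for 32 of the 43, and for 41.0% of all genes. Without it 31 repair genes were still called higher and 5 lower than in control, beside 27.2% and 26.0% of all genes. The median log2 fold change of the 43 was then 1.30 against control and 0.17 against LATS1/2-KO.

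Promoter sequences are shown for Rad51ap1, Clspn, Bard1 and Brip1, the largest rises in LATS1/2-KO among the genes with a RefSeq window, and for Xrcc1, the largest fall among them, to place the letters of the motifs that are known for cell cycle genes. RefSeq windows of 300 bases, with 50 of them downstream of the start site, were matched for 33 of the 43 genes. Exact matches on both strands were sought for the E2F motifs TTTGGCGC and TTTCGCGC, for TTTGAA (the cell cycle homology region) and for CCAAT (the NF-Y box). None of these strings overlapped another in the windows printed here. CCAAT was found in 22 of the 33 genes (66.7%) and in 41.1% of all genes with a window. An E2F string was found in 2 of 33, Clspn and Rad51c, and in 0.929% of all genes. TTTGAA was found in 3 of 33, Bard1, Polq and Rad51b, which is 9.09% beside 20.2% of all genes. A match is a string of letters and not evidence of binding, and the windows are credited to RefSeq on GRCm38.p6. Each is written 5′ to 3′ on the gene's own strand with matches in capitals, ATTGG being CCAAT read on the other strand and GCGCGAAA being TTTCGCGC read on the other strand.
Rad51ap1: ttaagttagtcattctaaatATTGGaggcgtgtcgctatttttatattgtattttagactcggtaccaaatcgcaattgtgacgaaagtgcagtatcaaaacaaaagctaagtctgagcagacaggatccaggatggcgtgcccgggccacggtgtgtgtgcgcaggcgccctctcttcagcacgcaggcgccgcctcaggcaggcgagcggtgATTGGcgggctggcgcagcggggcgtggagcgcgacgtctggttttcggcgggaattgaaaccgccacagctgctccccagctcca
Clspn: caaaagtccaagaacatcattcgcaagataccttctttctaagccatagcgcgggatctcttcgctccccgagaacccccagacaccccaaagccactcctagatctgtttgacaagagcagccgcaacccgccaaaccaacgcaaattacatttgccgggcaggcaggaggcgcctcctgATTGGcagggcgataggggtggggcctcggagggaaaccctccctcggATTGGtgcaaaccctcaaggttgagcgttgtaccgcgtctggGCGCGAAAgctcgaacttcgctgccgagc
Bard1: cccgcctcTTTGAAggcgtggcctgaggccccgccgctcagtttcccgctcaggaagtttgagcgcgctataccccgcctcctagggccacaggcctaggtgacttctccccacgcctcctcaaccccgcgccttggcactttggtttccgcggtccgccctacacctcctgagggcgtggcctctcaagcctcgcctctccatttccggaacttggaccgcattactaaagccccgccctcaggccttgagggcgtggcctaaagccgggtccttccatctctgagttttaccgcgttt
Brip1: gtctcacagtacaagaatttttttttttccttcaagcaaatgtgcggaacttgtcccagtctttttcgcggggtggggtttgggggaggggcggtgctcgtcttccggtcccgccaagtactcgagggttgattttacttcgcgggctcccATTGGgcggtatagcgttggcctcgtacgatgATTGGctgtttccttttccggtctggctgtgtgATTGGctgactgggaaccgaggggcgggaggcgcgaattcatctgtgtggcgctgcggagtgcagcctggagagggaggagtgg
Xrcc1: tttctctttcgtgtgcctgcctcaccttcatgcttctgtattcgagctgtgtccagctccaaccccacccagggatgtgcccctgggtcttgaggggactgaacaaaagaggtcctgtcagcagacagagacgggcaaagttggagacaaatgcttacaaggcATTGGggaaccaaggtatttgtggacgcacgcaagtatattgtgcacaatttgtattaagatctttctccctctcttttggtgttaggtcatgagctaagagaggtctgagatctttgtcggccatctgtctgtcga

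The Bard1 window lies at chr1:71102923-71103222 (minus strand) and holds TTTGAA at position -242 relative to the start site, with no CCAAT. The Brip1 window at chr11:86201144-86201443 (minus strand) holds 3 CCAAT, which begin at positions -99, -67 and -34. The Rad51ap1 window at chr6:126939538-126939837 (minus strand) holds 2 CCAAT, at positions -230 and -36. The Clspn window at chr4:126556730-126557029 (plus strand) holds 2 CCAAT, at positions -69 and -21, and an E2F string that begins at base 22 of the transcript. Xrcc1, whose level fell, has 1 CCAAT in its window at chr7:24546449-24546748 (plus strand). CCAAT was found in 14 of the 22 matched genes that were higher in LATS1/2-KO than in control, in 2 of the 3 that were lower and in 6 of the 8 that were not called.

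**Figure D1:**
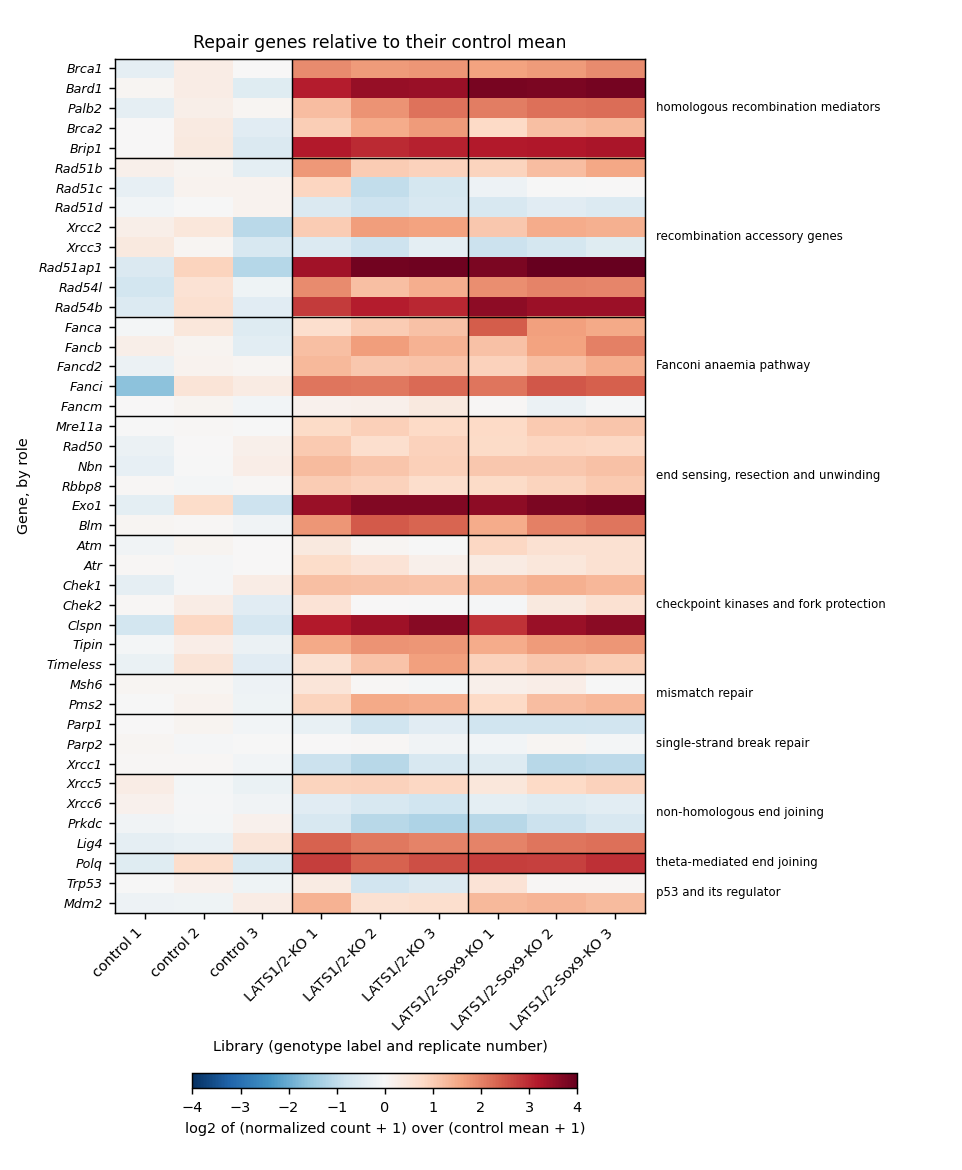
Each row is 1 of the 43 repair genes, in 10 groups by role, and each column is 1 of the 9 libraries; colour gives the log2 of (normalized count + 1) over (control mean + 1), and the scale ends at 4 in either direction. The rows of Bard1, Brip1, Rad51ap1, Rad54b, Exo1 and Clspn are dark red in all 6 deletion libraries, while Rad51d, Parp1, Xrcc1, Xrcc6 and Prkdc are blue in them.

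The first question was how the repair genes differ between LATS1/2-deleted cells and control cells. In LATS1/2-KO, 30 of the 43 genes were higher than in control and 5 were lower at an adjusted p of at most 0.05 in edgeR's quasi-likelihood test. Of all 19357 genes tested, 28.7% were higher and 27.1% lower by the same rule. The 43 were chosen with earlier results of these data known, so setting them beside these shares is a description and carries no test. By the stricter rule that also asks for more than a 2-fold change, 23 repair genes were higher (17.1% of all genes) and 0 were lower (17.5% of all genes). DESeq2 at an adjusted p of 0.05 also called 30 higher and 5 lower, beside 17.8% and 18.4% of all genes in that fit. That fit kept every gene with any count, so its shares have a larger base than those of edgeR. It called 5604 genes higher, and edgeR called 5550. The median log2 fold change of the 43 was 1.18, beside 0.04 for all genes, and they ranged from -0.97 for Prkdc to 3.73 for Rad51ap1. Against the same control libraries, 31 repair genes of LATS1/2-Sox9-KO were higher and 5 lower, beside 29.3% and 28.7% of all genes, with a median log2 fold change of 1.13 beside 0.01. By the stricter rule 24 were higher and 0 lower, beside 17.8% and 19.6% of all genes. Every LATS1/2-KO library lay above every control library in 31 repair genes and below it in 5, beside 31.3% and 30.3% of all genes, and for LATS1/2-Sox9-KO the numbers were 31 and 5 beside 34.9% and 33.8%. Since these are bulk libraries, more cells that express a gene and more RNA per cell cannot be told apart.

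The size of the change went with how low a gene was in control. The 10 genes with a control mean under 100 normalized counts were all higher in LATS1/2-KO (median 2.81 on the log2 scale). Of 15 genes between 100 and 500, 12 were higher and 3 were not called (median 1.31). Of 4 genes between 500 and 1000, 2 were higher, 1 lower and 1 not called (median 0.69). Of the 14 genes at 1000 or more, 6 were higher, 4 lower and 4 not called (median 0.17). Of all genes tested, at any control level, 28.7% were higher and 27.1% lower. The control mean is part of the fold change, so this split is a description and carries no test.

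**Figure D2:**
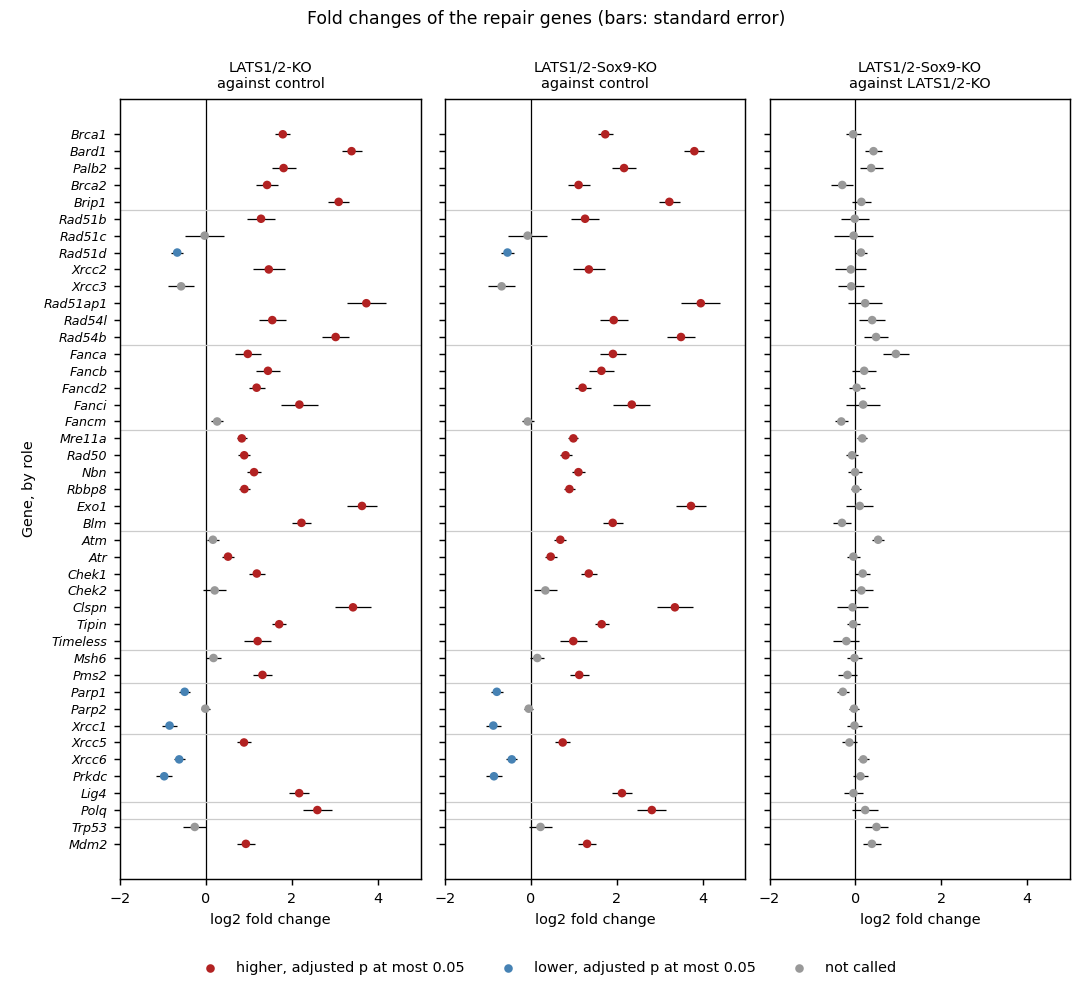
Points are the log2 fold changes of the 43 genes (x axis) by gene and role (y axis) in the 3 comparisons, with standard errors as bars; red marks genes that were higher and blue genes that were lower at an adjusted p of at most 0.05. The left and middle panels hold 30 and 31 red points and 5 blue points each, and no point of the right panel, LATS1/2-Sox9-KO against LATS1/2-KO, is coloured.

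The mediators of recombination rose as a block. All 5 of BRCA1, its partners BARD1 and BRIP1, and the mediators PALB2 and BRCA2 were higher than control in both deletion groups, each more than 2-fold. Of all genes tested, 17.1% in LATS1/2-KO and 17.8% in LATS1/2-Sox9-KO were higher by the same rule. The median log2 fold changes of the 5 were 1.81 in LATS1/2-KO and 2.17 in LATS1/2-Sox9-KO. Bard1, which encodes the RING partner that BRCA1 needs as a ubiquitin ligase, gave 49.9, 57.8 and 33.6 normalized counts in control, 424, 541 and 521 in LATS1/2-KO and 665, 649.7 and 677 in LATS1/2-Sox9-KO. Its groups do not overlap, and it rose 10.5-fold in LATS1/2-KO (log2 fold change 3.39 ± 0.23 SE, adjusted p = 3.87e-06). Brip1, the helicase that binds the BRCT repeats of BRCA1, gave 80.03, 105 and 53.5 in control, 720.1, 632 and 688 in LATS1/2-KO and 723, 748 and 775 in LATS1/2-Sox9-KO, a rise of 8.51-fold in LATS1/2-KO (log2 3.09 ± 0.24 SE, adjusted p = 6.81e-06). All 6 deletion libraries lay far above the control libraries, as they did for Bard1.

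Brca2 moved less. It gave 312, 398 and 225 normalized counts in control, 624, 868 and 1014 in LATS1/2-KO and 543, 720.4 and 763 in LATS1/2-Sox9-KO, with log2 fold changes against control of 1.42 ± 0.26 SE (adjusted p = 0.0011) and 1.11 ± 0.26 SE (adjusted p = 0.00404). Every deletion library was above every control library, the nearest being LATS1/2-Sox9-KO replicate 1 and control replicate 2. Brca1 itself rose 3.45-fold in LATS1/2-KO, from 283 to 442 in the control libraries to 1187 to 1347. The level of Brca1 per kilobase was 3.76, 5.07 and 7.22 times that of Bard1 in the control libraries, 2.11, 1.45 and 1.57 times in LATS1/2-KO, and 1.12, 1.202 and 1.31 times in LATS1/2-Sox9-KO. The ratio was lower in all 6 deletion libraries than in any control library; it was computed after the values were seen and was not tested, and 3 libraries against 3 cannot give an exact two-sided permutation p below 0.1.

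Among the accessory genes of recombination the members parted. Rad51b, Xrcc2, Rad51ap1, Rad54l and Rad54b were higher than control in both deletion groups, Rad51d was lower in both, and Rad51c and Xrcc3 were not called in either. RAD51B, RAD51C, RAD51D and XRCC2 form the BCDX2 complex, which acts early in recombination, and XRCC3 pairs with RAD51C in a second complex. Rad51ap1, whose product stimulates strand exchange, gave 33.6, 95.3 and 22.4 normalized counts in control, 524, 746 and 755 in LATS1/2-KO and 697, 840.0 and 834 in LATS1/2-Sox9-KO. All deletion libraries lay above all control libraries, while the 2 deletion groups overlap each other. Control replicate 2 was the highest control. The rise of 13.3-fold (log2 3.73 ± 0.45 SE, adjusted p = 8.82e-05) was the largest of the 43 in LATS1/2-KO. Without control replicate 2 the log2 fold change was 4.58. Rad54b, a DNA translocase of recombination, gave 33.6, 78.2 and 36.1 in control, 348, 446 and 410.4 in LATS1/2-KO and 597, 543 and 541 in LATS1/2-Sox9-KO (log2 3.02 ± 0.32 SE in LATS1/2-KO, adjusted p = 3.75e-05). The deletion libraries again lay above all control libraries. However, 35.8% of the exon bases of Rad54b are shared with Fsbp on the same strand. How reads on shared bases were assigned is not given in the sources used here. Rad54l shares 15.4% of its exon bases with Lrrc41 on the opposite strand.

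Rad51d went the other way. It gave 864, 914 and 1021 normalized counts in control, 631, 530.4 and 597 in LATS1/2-KO and 597, 684 and 643 in LATS1/2-Sox9-KO, so every deletion library was below every control library, with log2 fold changes of -0.67 ± 0.14 SE (adjusted p = 0.00282) and -0.54 ± 0.14 SE (adjusted p = 0.00849). With an offset for GC content the values were -0.39 (adjusted p = 0.0424) and -0.29 (adjusted p = 0.105), so that it was not called in LATS1/2-Sox9-KO. In control it was the highest of the group per kilobase, at 251 normalized counts per kilobase beside a group median of 18.02, and in LATS1/2-KO it stood at 158 beside 51.2. Rad51c gave 102, 141 and 139 in control, 233, 64.4 and 77.5 in LATS1/2-KO and 109.5, 126 and 128 in LATS1/2-Sox9-KO. Its LATS1/2-KO libraries lie on both sides of the control libraries, with replicate 1 highest, and the log2 fold change was -0.03 ± 0.45 SE (adjusted p = 0.96). Without LATS1/2-KO replicate 1, Rad51c was lower than control (log2 -0.84, adjusted p = 0.0275).

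In the Fanconi anaemia group, Fanca, Fancb, Fancd2 and Fanci were higher than control in both deletion groups and Fancm was not called in either. FANCD2 and FANCI form the clamp that is ubiquitinated at crosslinks, FANCA and FANCB belong to the core complex that does this, and FANCM is the translocase that recruits the complex. Fanci gave 45.2, 204 and 180.5 normalized counts in control, 629.8, 619 and 691 in LATS1/2-KO and 633, 804 and 759.6 in LATS1/2-Sox9-KO. Control replicate 1 was far below the other controls, and the rise in LATS1/2-KO was 2.17 ± 0.43 SE on the log2 scale (adjusted p = 0.00174), or 1.75 without that library. Of the exon bases of Fanci, 16% are shared with Polg on the opposite strand. Fancb gave 103, 94.1 and 66.0 in control, 203, 283 and 231 in LATS1/2-KO and 201, 269 and 356 in LATS1/2-Sox9-KO (log2 1.44 ± 0.29 SE in LATS1/2-KO, adjusted p = 0.00188). Fancm gave 726, 769 and 661 in control, 805, 835 and 939 in LATS1/2-KO and 747, 609.8 and 698 in LATS1/2-Sox9-KO, and its difference in LATS1/2-KO did not pass the test (log2 0.26 ± 0.14 SE, adjusted p = 0.155). Fanca, at 373, 532 and 271 in control and 623, 798 and 889 in LATS1/2-KO, was called there (log2 0.97 ± 0.30 SE, adjusted p = 0.0192), but not without control replicate 1 (adjusted p = 0.0576), control replicate 3 (0.0689) or LATS1/2-KO replicate 3 (0.0606).

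The genes for sensing, trimming and unwinding broken ends were all higher than control in both deletion groups, 6 of 6. Of all genes tested, 28.7% were higher in LATS1/2-KO and 29.3% in LATS1/2-Sox9-KO. MRE11, RAD50 and NBS1 (the product of Nbn) make up the complex that first binds a break, CtIP (the product of Rbbp8) starts the trimming, EXO1 extends it, and the BLM helicase unwinds the strands and later resolves recombination intermediates. The members of the MRE11 complex were abundant in control and rose by similar amounts, with log2 fold changes in LATS1/2-KO of 0.83 ± 0.12 SE for Mre11a, 0.89 ± 0.14 SE for Rad50 and 1.12 ± 0.16 SE for Nbn. Mre11a gave 1399, 1447 and 1386 normalized counts in control, 2401, 2709.5 and 2428 in LATS1/2-KO and 2458, 2892 and 3076 in LATS1/2-Sox9-KO (adjusted p = 0.000206 and 5.82e-05). The control libraries were tightly grouped and lay below all deletion libraries. Exo1 was the lowest of the 43 in control, at 7.67 normalized counts per kilobase, and stood at 95.5 per kilobase in LATS1/2-KO. It gave 48.7, 109 and 36.1 normalized counts in control, 719, 847 and 845 in LATS1/2-KO and 774, 883 and 930.0 in LATS1/2-Sox9-KO, a rise of 12.4-fold (log2 3.63 ± 0.36 SE, adjusted p = 2.47e-05; log2 4.24 without control replicate 2). Blm gave 302, 295 and 258 in control, 974, 1573 and 1441 in LATS1/2-KO and 796, 1154 and 1259.7 in LATS1/2-Sox9-KO (log2 2.22 ± 0.23 SE in LATS1/2-KO, adjusted p = 3.52e-05). In both genes the highest control library lay well below the lowest deletion library.

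Of the checkpoint kinases, Atr and Chek1 were higher than control in both deletion groups, Chek2 was not called in either, and Atm was called in LATS1/2-Sox9-KO and not in LATS1/2-KO. ATR and its effector CHK1 respond to stalled forks and exposed strands, and ATM and its effector CHK2 to breaks. Chek1 gave 270.2, 339 and 431 normalized counts in control and 806, 787 and 766 in LATS1/2-KO (log2 1.18 ± 0.18 SE, adjusted p = 0.000359). Atm gave 1670.2, 2014 and 1857 in control, 2431, 1950.4 and 1814 in LATS1/2-KO and 3295, 2846 and 2795 in LATS1/2-Sox9-KO. The LATS1/2-KO libraries overlap the control libraries (log2 0.16 ± 0.14 SE, adjusted p = 0.356), and the LATS1/2-Sox9-KO libraries lie above all others (log2 0.69 ± 0.14 SE against control, adjusted p = 0.00192), though with an offset for GC content Atm was not called there (0.33, adjusted p = 0.0741). The smallest called change among the repair genes in LATS1/2-KO that was higher was that of Atr (log2 0.51 ± 0.14 SE, adjusted p = 0.012), which was not called with the GC offset in LATS1/2-KO (0.11, adjusted p = 0.5) or LATS1/2-Sox9-KO (0.12, adjusted p = 0.453). In LATS1/2-Sox9-KO the call of Atr was also lost without control replicate 2 (adjusted p = 0.0609) or LATS1/2-Sox9-KO replicate 3 (0.0659).

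The fork protection genes Clspn, Tipin and Timeless, which hold the replication fork together with the checkpoint, were higher in both deletion groups, but Timeless was not called in LATS1/2-Sox9-KO without control replicate 1 (adjusted p = 0.0676), control replicate 3 (0.0641) or LATS1/2-Sox9-KO replicate 2 (0.0502). Clspn, which encodes claspin, the adaptor through which ATR activates CHK1, gave 68.4, 201 and 70.9 normalized counts in control, 1039, 1194 and 1426 in LATS1/2-KO and 846, 1253 and 1397 in LATS1/2-Sox9-KO. Control replicate 2 was the highest control but lay far below the deletion libraries, and the rise was 10.7-fold in LATS1/2-KO (log2 3.42 ± 0.41 SE, adjusted p = 8.44e-05; log2 4.12 without control replicate 2). Tipin gave 499.9, 627 and 447 in control, 1507, 1830.1 and 1789 in LATS1/2-KO and 1479.7, 1693 and 1774 in LATS1/2-Sox9-KO (log2 1.70 ± 0.16 SE, adjusted p = 1.95e-05). At 914 normalized counts per kilobase it was the highest of the 7 checkpoint and fork genes in LATS1/2-KO, as it was in control at 281.

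The mismatch repair genes split. Pms2, an endonuclease of this route, gave 297, 333 and 269 normalized counts in control, 558, 855 and 824 in LATS1/2-KO and 516, 705 and 747 in LATS1/2-Sox9-KO, and was higher in both (log2 1.31 ± 0.22 SE and 1.13 ± 0.22 SE, adjusted p = 0.000638 and 0.00142). Msh6, which takes part in recognising mismatches, gave 2037, 2029 and 1680.2 in control, 2676, 1989 and 1819 in LATS1/2-KO and 2187, 2318 and 1884 in LATS1/2-Sox9-KO. Its groups overlap, and no difference passed the test (log2 0.17 ± 0.16 SE in LATS1/2-KO, adjusted p = 0.394).

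The single-strand break genes were the group in which no member rose. PARP1 and PARP2 sense nicks and XRCC1 is the scaffold on which the nick is filled and sealed. Xrcc1 gave 2373, 2372 and 2143 normalized counts in control, 1264, 1075 and 1486 in LATS1/2-KO and 1600.4, 1066 and 1101 in LATS1/2-Sox9-KO, all of the deletion libraries below control (log2 -0.85 ± 0.18 SE and -0.87 ± 0.18 SE, adjusted p = 0.00271 and 0.00215). With an offset for GC content the values of Xrcc1 were -0.36 (adjusted p = 0.0489) and -0.45 (adjusted p = 0.0171). Parp1 gave 4138, 4411 and 3797 in control, 3365, 2384 and 3001 in LATS1/2-KO and 2349.5, 2384 and 2411 in LATS1/2-Sox9-KO (log2 -0.50 ± 0.13 SE and -0.79 ± 0.13 SE, adjusted p = 0.00923 and 0.000589). The deletion libraries of Parp1 all lie below control, and those of LATS1/2-Sox9-KO are the closest together. Parp2 gave 1852, 1716 and 1732 in control, 1784, 1841 and 1616 in LATS1/2-KO and 1626, 1847 and 1659 in LATS1/2-Sox9-KO, with overlapping groups and log2 fold changes of -0.02 ± 0.11 SE and -0.05 ± 0.11 SE (adjusted p = 0.912 and 0.737).

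Non-homologous end joining was divided within a single complex. Xrcc5 (Ku80) and Lig4, the ligase of the route, were higher than control in both deletion groups, while Xrcc6 (Ku70) and Prkdc (the catalytic subunit of DNA-PK) were lower in both. Xrcc5 gave 1618, 1252 and 1092 normalized counts in control, 2438, 2509 and 2367 in LATS1/2-KO and 1807, 2315 and 2518 in LATS1/2-Sox9-KO (log2 0.88 ± 0.17 SE and 0.74 ± 0.17 SE, adjusted p = 0.00146 and 0.00361). Xrcc6 gave 3224, 2769 and 2574 in control, 2102, 1822 and 1633 in LATS1/2-KO and 2179, 1997 and 2135 in LATS1/2-Sox9-KO (log2 -0.62 ± 0.13 SE and -0.44 ± 0.13 SE, adjusted p = 0.00247 and 0.0149). Neither gene's deletion libraries overlap its control libraries, and the directions are opposite although Ku70 and Ku80 act as a heterodimer. Per kilobase, Xrcc5 stood at 0.879, 0.792 and 0.743 times Xrcc6 in the control libraries, at 2.03, 2.41 and 2.54 times in LATS1/2-KO, and at 1.45, 2.03 and 2.07 times in LATS1/2-Sox9-KO. This ratio, too, was formed after the values were seen and was not tested. Of the exon bases of Xrcc6, 7.69% are shared with Desi1 on the opposite strand, and its call in LATS1/2-Sox9-KO was lost without control replicate 1 (adjusted p = 0.0705) or LATS1/2-Sox9-KO replicate 2 (adjusted p = 0.0721).

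Prkdc gave 2444, 2546 and 3009 normalized counts in control, 1708, 1235 and 1132 in LATS1/2-KO and 1236, 1466 and 1719.7 in LATS1/2-Sox9-KO, and its fall was the largest of the 43 in LATS1/2-KO (log2 -0.97 ± 0.18 SE, adjusted p = 0.00137; -0.86 ± 0.18 SE in LATS1/2-Sox9-KO, adjusted p = 0.00266). Lig4 gave 164, 171 and 292 in control, 1072, 910.0 and 839 in LATS1/2-KO and 835, 932 and 966 in LATS1/2-Sox9-KO (log2 2.17 ± 0.24 SE in LATS1/2-KO, adjusted p = 4.56e-05). Both genes separate the control libraries fully from the deletion libraries, in opposite directions. Polq, the polymerase of theta-mediated end joining, a route that joins trimmed ends at short matching stretches, gave 60.3, 137 and 54.8 in control, 581, 437 and 509 in LATS1/2-KO and 573, 569 and 646 in LATS1/2-Sox9-KO. It rose 6.03-fold in LATS1/2-KO (log2 2.59 ± 0.33 SE, adjusted p = 0.000125) and 7.06-fold in LATS1/2-Sox9-KO (log2 2.82 ± 0.34 SE, adjusted p = 6.44e-05).

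**Figure D3:**
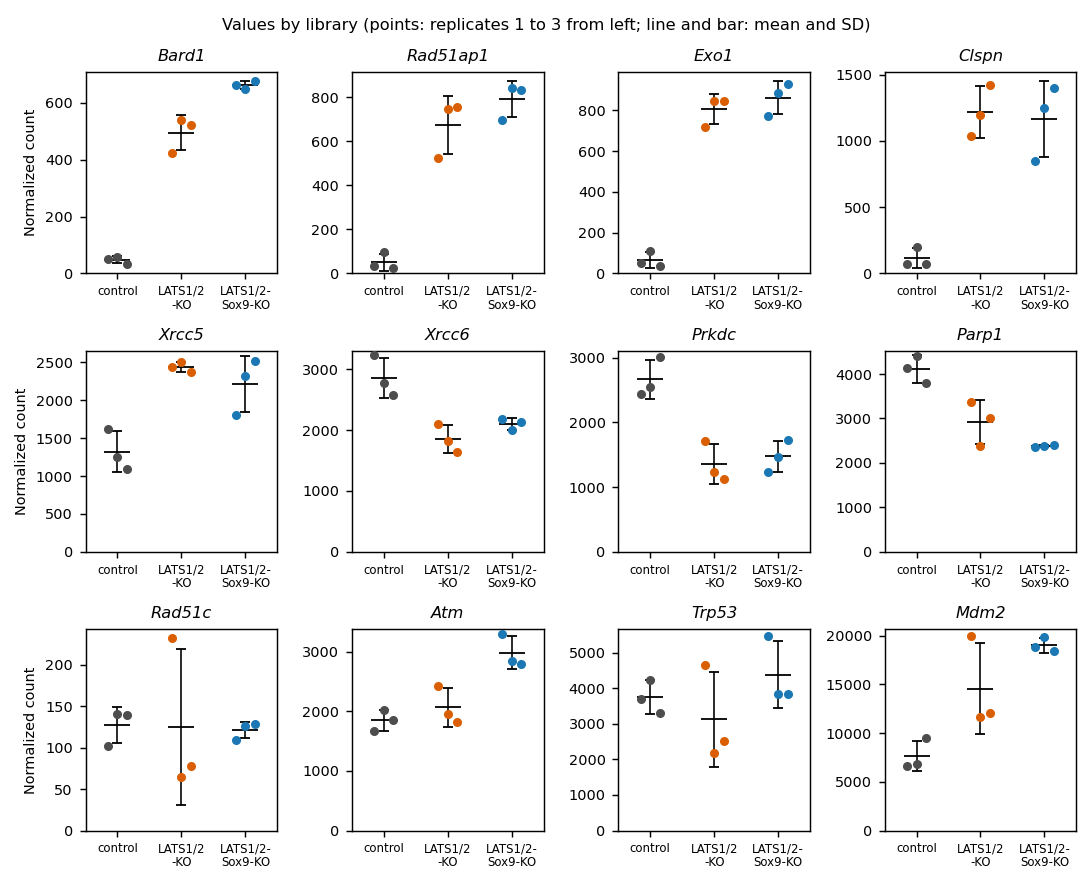
Normalized counts (y axis, from 0) of 12 repair genes in the 3 groups (x axis), with points for replicates 1 to 3 from left to right, a line at the mean and a bar for the SD of n = 3 libraries. Bard1, Rad51ap1, Exo1 and Clspn lie near the axis in control, Xrcc5 and Xrcc6 move in opposite directions, and replicate 1 is the highest LATS1/2-KO point for Rad51c (233), Atm (2431), Trp53 (4658) and Mdm2 (19965).

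Mdm2, the ubiquitin ligase that keeps p53 low and is itself a p53 target, was the most abundant of the 43 genes per kilobase in all 9 libraries. It gave 6640.2, 6850.5 and 9479 normalized counts in control, 19965, 11634 and 12109 in LATS1/2-KO and 18789, 19853 and 18399 in LATS1/2-Sox9-KO, higher than control in both (log2 0.93 ± 0.21 SE and 1.31 ± 0.22 SE, adjusted p = 0.00421 and 0.000505). Without LATS1/2-KO replicate 1, the highest of its group, the log2 fold change of Mdm2 in LATS1/2-KO was 0.64 (adjusted p = 0.00666). Trp53 gave 3693, 4242 and 3292 in control, 4658, 2182 and 2524 in LATS1/2-KO and 5472, 3841 and 3837 in LATS1/2-Sox9-KO. Its groups overlap, and neither difference from control passed the test (log2 -0.26 ± 0.27 SE and 0.23 ± 0.27 SE, adjusted p = 0.433 and 0.491). Without LATS1/2-KO replicate 1, Trp53 was lower in LATS1/2-KO than in control (log2 -0.66, adjusted p = 0.0139), and the count of lower repair genes went from 5 to 7, Rad51c being the other. The share of all genes called lower was 27.1% with that library and 27.3% without it.

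The remaining question was whether the repair genes differ when Sox9 is floxed in addition. In LATS1/2-Sox9-KO against LATS1/2-KO, 0 of the 43 genes passed the edgeR test in either direction, beside 3.13% of all genes called higher and 3.33% lower (1.55% and 2.16% over 2-fold). DESeq2 called 2 of them higher, Fanca and Atm, beside 3.69% of all genes in that fit. At an unadjusted p under 0.05, 3 repair genes stood out (Fanca, Fancm and Atm), beside 22.6% of all genes. The median log2 fold change of the 43 was 0.01, the range -0.33 to 0.94, and the standard errors ranged from 0.11 to 0.45 with a median of 0.21. A p that misses the threshold does not show that the levels are alike. With 3 libraries a group, differences larger than these errors could also miss it, as those of Atm and Fanca below did. In 6 genes every LATS1/2-Sox9-KO library was above every LATS1/2-KO library and in 1 gene every library was below, beside 14.6% and 13.3% of all genes.

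Atm and Fanca had the largest differences. Atm was higher by 0.53 ± 0.14 SE on the log2 scale (adjusted p = 0.0538), and without LATS1/2-KO replicate 1 it passed the test (0.66, adjusted p = 0.018). Fanca gave 2096, 1229 and 1115 normalized counts in LATS1/2-Sox9-KO, above the 623 to 889 of LATS1/2-KO in every library (log2 0.94 ± 0.30 SE, adjusted p = 0.0928). LATS1/2-Sox9-KO replicate 1 was the highest, and 10.5% of the exon bases of Fanca are shared with Zfp276 on the opposite strand. Leaving out LATS1/2-KO replicate 1 raised the count of higher genes from 0 to 3, Trp53 (0.90, adjusted p = 0.0225) and Mdm2 (0.68, adjusted p = 0.0313) joining Atm. The same step raised the share of all genes called higher from 3.13% to 5.01%.

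Markers of cycling cells moved with the repair genes. Of 19 genes of S phase, which include the replication clamp Pcna and the MCM helicase, 18 were higher in LATS1/2-KO than in control and 0 lower (median log2 fold change 1.75), and 17 were higher in LATS1/2-Sox9-KO (median 1.76). Of 19 genes of G2 and mitosis, 19 were higher in each (medians 4.04 and 3.94), beside 28.7% and 29.3% of all genes. The summed normalized counts of the G2 and mitosis genes were 4140, 8036 and 4013 in the control libraries, 68807, 72105 and 71736 in LATS1/2-KO and 62428, 73477 and 79522 in LATS1/2-Sox9-KO. Control replicate 2, the highest control, is also the library with the most repair genes at their control maximum. Per kilobase Pcna was the most abundant S phase gene in all 9 libraries, and none of these genes was at 0 in any library. Between the deletion groups 0 genes of either list were called by edgeR at an adjusted p of 0.05, beside 3.13% of all genes higher and 3.33% lower. The part of cycling cells in the repair result was not tested.

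**Figure D4:**
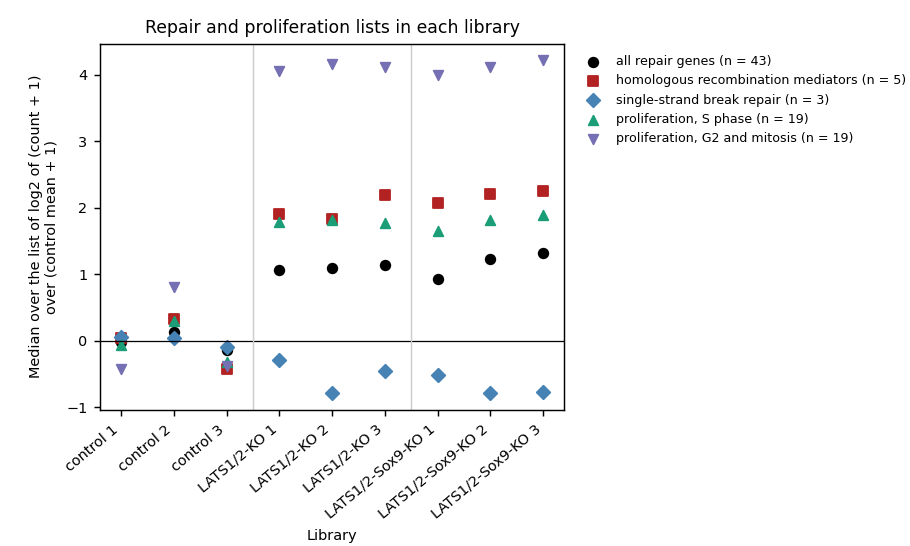
For each library (x axis), points give the median over a list of genes of the log2 of (normalized count + 1) over (control mean + 1) (y axis). The 43 repair genes lie between 0.92 and 1.32 in the 6 deletion libraries, the recombination mediators and S phase genes higher, the G2 and mitosis genes highest (up to 4.22), and the 3 single-strand break genes below 0.

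Other genes of the same routes, taken from pathway lists, were mixed in direction. Their counts stand beside 28.7% of all genes higher and 27.1% lower in LATS1/2-KO, and 29.3% and 28.7% in LATS1/2-Sox9-KO. They were not tested against these shares. Of 33 further genes of recombination and the Fanconi pathway, 15 were higher and 4 lower in LATS1/2-KO (median log2 fold change 0.29), and 13 higher and 3 lower in LATS1/2-Sox9-KO. Eme1, a subunit of the MUS81 nuclease, rose by 2.75 ± 0.33 SE on the log2 scale in LATS1/2-KO, while the Fanconi core gene Fancg (-1.59 ± 0.19 SE) and the helicase gene Recql5 (-1.31 ± 0.15 SE) fell. Of 15 further checkpoint and break signalling genes, 8 were higher and 3 lower in LATS1/2-KO, and 10 higher and 3 lower in LATS1/2-Sox9-KO. Between the deletion groups, 2 of the 15 were higher in LATS1/2-Sox9-KO and 0 lower, beside 3.13% and 3.33% of all genes. The activators of ATR, Etaa1 (2.27 ± 0.22 SE) and Topbp1 (2.14 ± 0.17 SE), rose, and the chromatin-bound mediators Mdc1 (-1.91 ± 0.13 SE) and Trp53bp1 (-1.37 ± 0.16 SE), the gene for 53BP1, which protects ends from trimming, fell. Of 7 further end joining genes 0 were higher and 1, the polymerase gene Poll (-1.08 ± 0.23 SE), was lower in edgeR's test at an adjusted p of 0.05.

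Markers of other cell types that the gate could hold moved in several directions. Against control, 28.7% of all genes were higher and 27.1% lower in LATS1/2-KO, and 29.3% and 28.7% in LATS1/2-Sox9-KO. Of 12 luminal markers 2 were higher and 9 lower in LATS1/2-KO than in control, and of 9 basal markers 4 were higher and 3 lower, with Krt14 the most abundant per kilobase in all 6 deletion libraries. In LATS1/2-Sox9-KO against control, 4 of the 9 basal markers were higher and 5 lower, their median being -0.69 on the log2 scale. The summed normalized counts of the basal markers were 4862, 5851 and 5206 in control, 269131, 161878 and 156474 in LATS1/2-KO and 158469, 281745 and 387053 in LATS1/2-Sox9-KO. These sums do not describe the list as a whole. Krt14 averaged 101010 normalized counts per kilobase in LATS1/2-KO and 134005 in LATS1/2-Sox9-KO. The median basal marker stood at 185 per kilobase in control, 175 in LATS1/2-KO and 41.2 in LATS1/2-Sox9-KO. Of the 12 immune markers 7 could be tested, of which 1, the macrophage receptor gene Csf1r, was higher in LATS1/2-KO and 2, Csf1r and the macrophage gene Adgre1, in LATS1/2-Sox9-KO, and 0 were lower in either by edgeR's test. Csf1r gave 208, 128 and 139 normalized counts in control, 2804, 2374 and 1753 in LATS1/2-KO and 2716, 3122 and 3875 in LATS1/2-Sox9-KO. The T-cell marker Cd3e and the B-cell marker Ms4a1 were at 0 in all 9 libraries. Summed over the 12 immune markers the normalized counts were 1149, 852 and 778 in control, 4407, 3109 and 2099 in LATS1/2-KO and 3565, 3773 and 4835 in LATS1/2-Sox9-KO. Most of the sum in the deletion libraries was Csf1r, and without it the sums were 942, 723 and 638 in control, 1603, 735 and 347 in LATS1/2-KO and 848, 651 and 960.0 in LATS1/2-Sox9-KO, with overlapping groups.

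The summed endothelial markers were lower in every deletion library than in any control library, at 5989.5, 4993 and 5866 normalized counts in control, 965, 702 and 787 in LATS1/2-KO and 297, 865 and 901 in LATS1/2-Sox9-KO. Vwf, which encodes von Willebrand factor, made up most of the control sums and fell in both groups (log2 -4.99 ± 0.50 SE and -5.42 ± 0.51 SE, adjusted p = 2.67e-05 and 1.42e-05). Of the 6 endothelial markers 1, the VEGF receptor gene Kdr, was higher in each group, and Tek was also lower in LATS1/2-Sox9-KO. The summed red cell markers were 142, 145 and 119 in control, 87.3, 5.08 and 18.2 in LATS1/2-KO and 2.78, 0 and 0.911 in LATS1/2-Sox9-KO. Of the 2 that could be tested, Alas2, an enzyme gene of heme synthesis, was lower in both groups and Hba-a1 in LATS1/2-Sox9-KO. Of 6 fibroblast markers 2 were higher and 1 lower in LATS1/2-KO, and 1 higher and 2 lower in LATS1/2-Sox9-KO. Their summed normalized counts were 2032, 3773 and 8547 in control, 2211, 651 and 1521 in LATS1/2-KO and 162, 330 and 785 in LATS1/2-Sox9-KO, so that the LATS1/2-KO libraries overlapped control and the LATS1/2-Sox9-KO libraries lay below it. Dcn, the proteoglycan gene that was the most abundant per kilobase in every library but LATS1/2-Sox9-KO replicate 1, fell in both groups (adjusted p = 0.0429 and 0.0016). Of 4 adipocyte markers 3 (Adipoq, Fabp4 and Cidec) were higher in LATS1/2-KO and 2 (Adipoq and Cidec) in LATS1/2-Sox9-KO, with 0 lower in either by edgeR's test. Their summed normalized counts were 273, 184 and 289 in control, 479, 3389 and 1583 in LATS1/2-KO and 54.8, 1198 and 1059 in LATS1/2-Sox9-KO, so replicate 1 of each deletion group was far below the other replicates. The most abundant per kilobase in all 9 libraries was Fabp4, which gave 477, 2676 and 1208 in LATS1/2-KO and 53.8, 994 and 919 in LATS1/2-Sox9-KO beside 269, 171 and 280.0 in control. The part of any of these cell types in the repair result was not tested.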

How the data were processed

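RNA from EYFP+ mammary cells sorted from control, LATS1/2-KO and LATS1/2-Sox9-KO mice (3 libraries each) was sequenced from TruSeq libraries. The authors aligned reads to mm10 with STAR 2.6.0c and counted uniquely aligned proper pairs on Ensembl genes with featureCounts (Subread 1.6.2), without mitochondrial genes; the deposited values are these raw counts. The methods describe counting by strand, while the kit named in the labels does not mark strand. The setting used is not settled by these sources, so it is not known whether reads from overlapping genes on opposite strands were told apart. The libraries held 44167762 to 61967651 counts each. Precision is limited by n = 3, and whether depth adds to this limit for genes with low counts was not examined.

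Symbols, exon lengths and overlaps were taken from GENCODE M21, and 55104 of 55450 gene identifiers matched. In R 4.3.3, edgeR 4.0.16 (filterByExpr, TMM) fitted the 3 group means to all 9 libraries, and quasi-likelihood p-values were adjusted by Benjamini-Hochberg over 19357 genes. The code was tested on simulated counts. No 2 libraries of a group agreed within sampling noise. Alternatives were DESeq2 1.42.0, RLE and upper-quartile factors, scaling without the 100 most counted genes, other count filters, the compared groups alone, a replicate block, each library left out, glmTreat at 1.2-fold, an adjusted p of 0.01 and an offset for GC content.

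The members and lists were chosen with earlier results of these data known. Values by library are given for the 2 largest and the smallest absolute log2 fold changes in LATS1/2-KO of each role group, for all members of groups of up to 3 and for every gene called lower; Brca1, Fanca, Chek1 and Xrcc5 were added after their values were seen. Of other pathway lists the 2 largest called changes in each direction are named, and of marker lists the most abundant gene and those at 0. Some genes of these lists, and the further mismatch repair genes, are not reported here, though the list counts include them.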

Additional observations from a re-analysis of the deposited data

How the results depend on the processing

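In the comparisons with control, the number of repair genes called higher held under 18 alternatives, at 23 to 30 in LATS1/2-KO and 24 to 31 in LATS1/2-Sox9-KO (29 to 30 and 30 to 31 with a library left out), the lowest being those that ask for over 2-fold. The number called lower was 5 to 7 in LATS1/2-KO and 4 to 6 in LATS1/2-Sox9-KO with a library left out, and 0 and 0 over 2-fold, since none of the 5 fell that far. Xrcc3 joined the lower genes without control replicate 3 (adjusted p = 0.0324 and 0.0215). Against control in LATS1/2-Sox9-KO, Timeless was not called without control replicate 1, control replicate 3 or LATS1/2-Sox9-KO replicate 2 (adjusted p = 0.0676, 0.0641 and 0.0502), nor Atr without control replicate 2 or LATS1/2-Sox9-KO replicate 3 (0.0609 and 0.0659), and with glmTreat at 1.2-fold Atr (0.0654) and Xrcc6 (0.0666) were not called. With the GC offset Rad51d (-0.29, adjusted p = 0.105), Atm (0.33, 0.0741) and Atr (0.12, 0.453) were not called there, and the median log2 fold change of the 43 genes was 0.92 in LATS1/2-KO and 0.99 in LATS1/2-Sox9-KO. Between LATS1/2-Sox9-KO and LATS1/2-KO the number higher was 2 with DESeq2, 2 with no filter on low counts, 1 with the GC offset and 0 to 3 with a library left out. In the same order, 3.69%, 2.64%, 3.49% and 0.77% to 5.01% of all genes in each fit were called higher. The number of repair genes called lower was 0 throughout. The causes were not tested.

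The labels do not say whether the replicate numbers pair the libraries. Deviations of same-numbered libraries from different groups correlated at -0.07 to 0.17, and those of other libraries at -0.16 to 0.06. With 3 libraries a group these values cannot settle whether the libraries were paired. With the replicate block the calls stayed at 30 higher and 5 lower, 31 and 5, and 0 and 0.

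Over all 43 genes and the alternatives that refit the fold change, 76 values turned sign, 56 of them between the deletion groups; 0 belonged to a gene called in that comparison and 0 passed the test in the alternative. Those of the genes with values by library follow. In LATS1/2-KO against control the log2 fold change of Rad51c was 0.015 with upper-quartile factors and -0.84 to 0.27 with a library left out, that of Parp2 0.026 with upper-quartile factors, 0.0075 with the compared groups alone and -0.067 to 0.045 with a library left out, and that of Msh6 -0.0035 to 0.29; with the GC offset Fancm was at -0.055, Atm at -0.26 and Trp53 at 0.025. For LATS1/2-Sox9-KO against control, leaving out a library gave -0.21 to 0.016 for Rad51c, -0.12 to 0.028 for Fancm and -0.084 to 0.0082 for Parp2. Between the deletion groups it gave -0.32 to 0.77 for Rad51c, -0.0065 to 0.41 for Fancb, -0.20 to 0.15 for Clspn, -0.13 to 0.047 for Tipin, -0.13 to 0.16 for Msh6, -0.083 to 0.038 for Parp2, -0.21 to 0.11 for Xrcc1 and -0.12 to 0.060 for Lig4. There the replicate block gave 0.090 for Rad51c, the GC offset 0.018 for Rad51c, 0.012 for Tipin, 0.019 for Parp2 and 0.018 for Lig4, and no filter 0.012 for Msh6, 0.0012 for Parp2 and 0.013 for Xrcc1.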

Other observations

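Repair routes outside recombination held genes that moved both ways in LATS1/2-KO against control, where 28.7% of all genes tested were higher and 27.1% lower. No list was tested against these shares. Of 21 base excision repair genes, 10 were higher and 3 lower, and the NEIL glycosylases parted: Neil3, which acts on lesions in single-stranded DNA, rose by 4.01 ± 0.47 SE on the log2 scale, while Neil2 (-2.02 ± 0.32 SE) and Neil1 (-1.90 ± 0.34 SE) fell. Fen1, the flap nuclease of replication and repair, rose by 1.55 ± 0.21 SE. Of 16 nucleotide excision repair genes, 7 were higher, led by Xpa (1.58 ± 0.33 SE) and Gtf2h1 (1.27 ± 0.10 SE), and 5 lower, led by Ercc6 (-0.87 ± 0.12 SE) and Ercc2 (-0.82 ± 0.18 SE). Of 10 genes of translesion synthesis and PCNA modification, 5 were higher, led by the ubiquitin ligase gene Rad18 (2.74 ± 0.33 SE) and the deubiquitinase gene Usp1 (2.10 ± 0.16 SE), and 2 lower, the polymerase genes Poli (-0.94 ± 0.19 SE) and Rev3l (-0.67 ± 0.14 SE). In LATS1/2-Sox9-KO against control the same 3 lists gave 12 higher and 4 lower, 8 and 4, and 5 and 2, beside 29.3% and 28.7% of all genes. Rev3l was also lower in LATS1/2-Sox9-KO than in LATS1/2-KO (-0.81 ± 0.14 SE, adjusted p = 0.0125 in edgeR's test).

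Of 20 genes known as p53 targets, 10 were higher and 5 lower in LATS1/2-KO than in control, beside 28.7% and 27.1% of all genes. The list was not tested against these shares. Dram1, a lysosomal regulator of autophagy (4.04 ± 0.31 SE), and Pmaip1, which encodes the BH3-only protein NOXA (3.85 ± 0.34 SE), rose, and Trp53inp1 (-3.06 ± 0.36 SE) and Gadd45a (-1.85 ± 0.34 SE) fell. Cdkn1a, which encodes the cell cycle inhibitor p21, gave 19965, 7994 and 10953 normalized counts in LATS1/2-KO beside 9639.6, 10592 and 13490.0 in control, with replicate 1 the highest, and its difference did not pass the test (0.21 ± 0.28 SE, adjusted p = 0.566; -0.24 without replicate 1, adjusted p = 0.298). In LATS1/2-Sox9-KO it gave 18011, 21623 and 22043, all above the control libraries (0.87 ± 0.29 SE, adjusted p = 0.0244). Pmaip1 was higher in LATS1/2-Sox9-KO than in LATS1/2-KO by 1.31 ± 0.31 SE (adjusted p = 0.0363).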
